A study of Selaginella moellendorffii with 8 samples.

Results

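The microphyll of Selaginella moellendorffii was compared with the root, with 2 RNA-seq libraries of each organ, 4 of the 8 libraries of the series. Selaginella is a lycophyte, a lineage of vascular plants without seeds. The 4 libraries were taken by their organ labels. Leaf RNA came from whole microphylls 10 to 14 days old. Root RNA came from outgrowths of the ventral angle meristem that were 10 to 20 days old and measured 5 to 10 cm, and that bore root hairs and a cap. The plants were untreated cuttings kept at 80% humidity with 16 h of light a day, and each library pooled 40 pieces of tissue. The other 4 libraries came from the shoot tip and the rhizophore, the leafless axis that precedes the root. Shoot tissue was 10 to 20 days old, and rhizophores were 4 to 7 days old and measured 2.5 to 3.5 cm. The labels give the libraries as biological repeats without naming separate plants, so the spread that the p-values rest on may in part be technical. Organ, age and the kind of tissue cut cannot be told apart.

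Microphylls are small leaves with a single unbranched vein. They are the photosynthetic surface of the plant, and in leaves of land plants generally a small set of abundant transcripts for light harvesting and carbon fixation makes up much of the RNA. Roots anchor the plant and take up water and ions, and in lycophytes they are thought to have arisen independently of the roots of seed plants. In Selaginella they start at the tip of a rhizophore and branch by forking. This is background: the gene models in the count table carry numbers in place of gene names, and 0 of the 25004 were found in the RefSeq table at hand. No model is therefore assigned a function below, the organ labels could not be checked against marker genes, and no sequence is shown.

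Leaf and root differed in 10205 of 23916 models tested, 42.7%, at an adjusted p under 0.05 in edgeR's quasi-likelihood test. Of these, 3340 models (14% of those tested) were higher in leaf and 6865 (28.7%) were higher in root. The lists were of different kinds. Models higher in leaf were mostly well expressed in leaf and also had counts in root, with a median of 53.0 CPM (counts scaled to the size of the library by the TMM method, which adjusts for a few models taking much of it) in leaf and 12.9 CPM in root. Of the 6865 models higher in root, 4106 (59.8%) were listed at 0 in both leaf libraries, and these had a median of only 2.14 CPM in root. The other 2759 had counts in leaf, with medians of 24.2 CPM in root and 5.99 CPM in leaf.

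**Figure D1:**
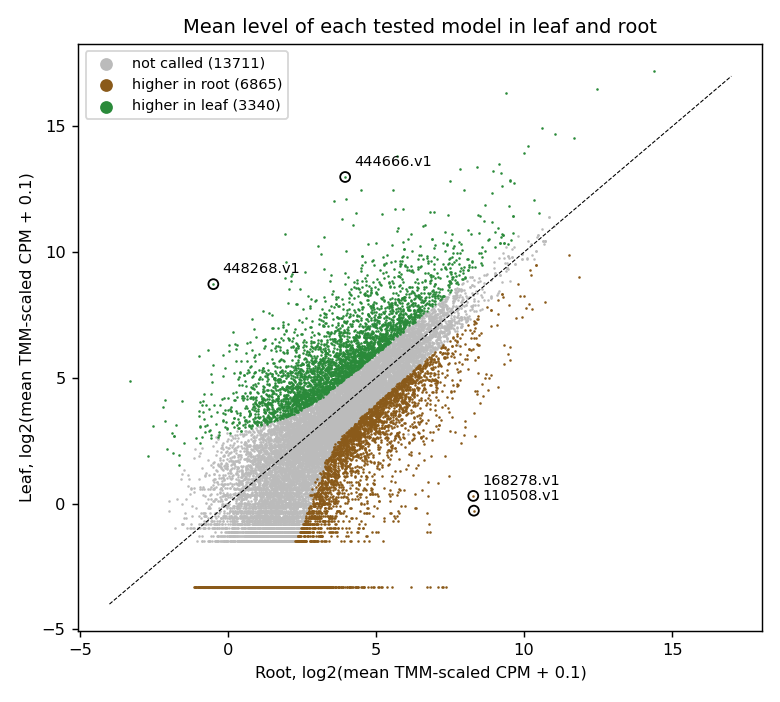
Mean level of each of the 23916 tested models in root (horizontal) and leaf (vertical), as log2 of the TMM-scaled CPM plus 0.1, each a mean of 2 libraries. Green points are the 3340 models higher in leaf, brown points the 6865 higher in root and grey points those not called; the brown row at the bottom is the 4106 models listed at 0 in both leaf libraries, and the circles mark the 4 leading models described in the text.

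Depth moved with that last group. The libraries held 2826533 and 16058139 counts for leaf and 25937179 and 27891111 for root, replicates 1 and 2 respectively. The table lists no count between 1 and 4, so 0 stands for up to 4 reads, and 5 counts correspond to 2.33 and 0.516 CPM in the leaf libraries but to 0.145 and 0.109 CPM in the root libraries. Models above 0 numbered 15320 and 19749 in leaf and 24582 and 24858 in root. With every library brought to the total of the smallest by proportion and the same limit of 5 counts, they numbered 15320 and 15016 in leaf and 20061 and 23342 in root, so that root still listed more models.

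Every tested model listed at 0 in both leaf libraries was called higher in root, down to a root mean of 0.353 CPM. Such a model passed the filter on low counts only through root. Of the 4106, 2269 (55.3%) had a root mean below the 2.33 CPM that 5 counts stand for in leaf replicate 1. By contrast, of 3447 models with some leaf counts, a root mean under 5 CPM and a root mean above the leaf mean, 4 were called higher in root. Of the 4106, 2633 were called by DESeq2's test and 3361 by limma-voom. With the 4 libraries thinned to the same total 734 were called, but that fit tested only 17331 models, and a model it did not test counts as not called. The form of edgeR's fit that adjusts deviances for small counts tested all 23916 models and called 534.

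The balance of directions depended on which models were counted. When the fit was limited to the 12226 models that reached 10 CPM in at least 2 of the 4 libraries, 2875 were higher in leaf and 2870 in root. At an adjusted p under 0.01, 2434 (10.2% of all tested) were higher in leaf and 2194 (9.17%) in root. Of the 816 models at 100 CPM or more in both organs, 213 (26.1%) were higher in leaf and 44 (5.39%) in root, and 559 (68.5%) were not called and lay within 2-fold. The scaling bears on these splits. The median log2 fold change of leaf over root across all tested models was -0.63 with TMM, -0.80 with DESeq2's size factors and -1.79 with library totals alone, where 10% of the called models were higher in leaf in place of 32.7%.

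The share of models called higher in leaf rose with the level in leaf. It was 0.613% of the 13860 tested models under 10 CPM in leaf, 27% of the 8229 at 10 to 100 CPM, 54.5% of the 1702 at 100 to 1000 CPM and 82.4% of the 125 at 1000 CPM or more. The median log2 fold change of the called models was 2.75, 1.82, 2.16 and 3.35 in these classes, the first from 85 models. Models higher in root made up 33.3% of the 13496 under 10 CPM in root, 22.5% of the 9237 at 10 to 100 CPM, 24.6% of the 1142 at 100 to 1000 CPM and 26.8% of the 41 at 1000 CPM or more. The share of the lowest class came mostly from models listed at 0 in both leaf libraries, 4028 of its 4491 calls. Among models with counts in leaf the shares higher in root were 4.89%, 21.9%, 24.2% and 26.8% in the same classes. These shares describe the calls and were not tested against each other.

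Few models were both abundant and higher in root. At 1000 CPM or more in the higher organ there were 103 models higher in leaf and 11 higher in root. The 10 most abundant models higher in leaf stood between 11700 and 153000 CPM in leaf and between 52 and 21200 CPM in root, with log2 fold changes of 2.84 to 8.12. The 10 most abundant models higher in root stood between 1070 and 3670 CPM in root and between 212 and 944 CPM in leaf, with log2 fold changes of -0.91 to -2.84. Of these lists of 10, 5 leaf models and 4 root models were called in the same direction in all 18 alternative fits. Among the 100 most abundant models of leaf, 84 were higher in leaf and 0 higher in root, whereas among the 100 most abundant of root 27 were higher in leaf, 24 were higher in root and 49 were not called. The lists of 100 shared 43 models.

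Leaf RNA was held largely by models higher in leaf, and root RNA was spread. Models higher in leaf took 72.3% and 72.1% of the counts in the leaf libraries and 23.1% and 20.1% of those in the root libraries. Models higher in root, although the longer list, took 22.6% and 25% of root counts and 2.70% and 2.78% of leaf counts. Both lists were chosen from these same libraries, so the difference of their shares between the organs follows in part from the choice. Reaching 50% of the counts needed 111 and 113 models in the leaf libraries, against 1173 and 1407 in the root libraries. Reaching 90% needed 4420 and 4512 models in leaf and 7982 and 10348 in root. The 95% Wilson intervals of the shares reach at most 0.0522 percentage points to either side and cover counting error only.

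The shoot and rhizophore libraries had no part in choosing these models. The models higher in leaf than in root took 73.8% and 74.4% of the counts in the shoot libraries, about as much as in leaf, and the models higher in root took 3.12% and 2.62% there. The rhizophore libraries differed from each other. Rhizophore replicate 1 had 46.0% of its counts in models higher in leaf and 8.15% in models higher in root, whereas the library labelled rhizophore replicate 2 had 24.9% and 16.2%, near the root libraries for the first share. That library is in doubt: as a combination of the 8 count columns, the authors' deposited Root average took 24.0% and 20.9% of its weight from the root libraries and 55.1% from the library labelled rhizophore replicate 2. The deposited Root averages quoted below therefore do not come from the root libraries alone. For the models named below, the deposited Rhizophore averages lay near rhizophore replicate 1. For 448268.v1 the average was 907, beside 999 CPM in replicate 1 and 1.03 CPM in the library in doubt. For 110508.v1 it was 1.04, beside 1.11 and 186 CPM. The library in doubt was in neither group of the leaf and root comparison.

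**Figure D2:**
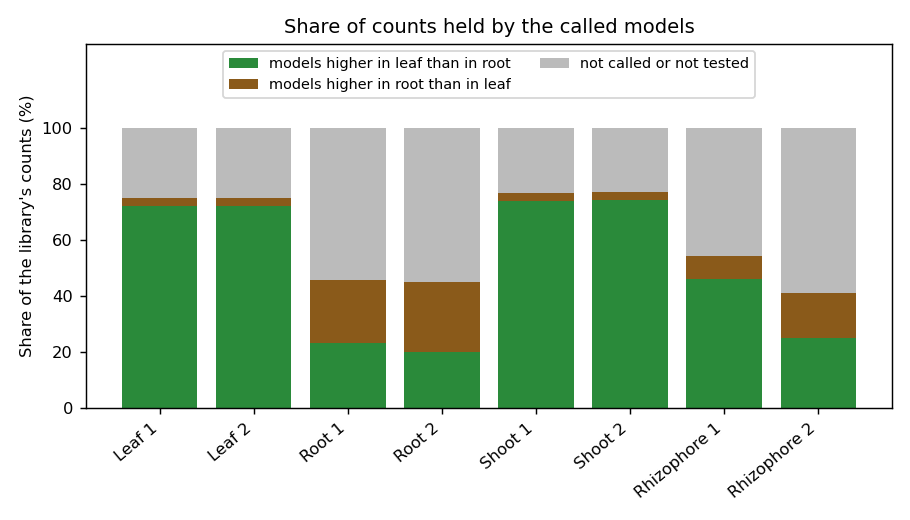
Share of each library's counts, in percent, held by models higher in leaf than in root (green), by models higher in root (brown) and by the rest (grey), one bar per library. Green takes 72.3% and 72.1% in leaf, 73.8% and 74.4% in shoot, 23.1% and 20.1% in root, and, in rhizophore, 46.0% and 24.9%.

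The leading model higher in leaf was 448268.v1, ranked by the ratio of mean levels among models at 50 CPM or more in the higher organ. Its level was 374 CPM in leaf replicate 1 and 473 CPM in leaf replicate 2, with 803 and 4588 counts. It was 0 CPM in root replicate 1 and 1.22 CPM in root replicate 2, with 0 and 56 counts. The leaf and root libraries do not overlap, and root replicate 2 alone carried the root signal. The means were 424 ± 69.9 CPM for leaf (SD, n = 2) and 0.611 ± 0.864 CPM for root. The fitted log2 fold change of leaf over root was 9.36, with an SE of 1.18 and an adjusted p of 0.000139 in edgeR's test. The call ended with DESeq2's size factors (edgeR adjusted p = 0.101), with upper-quartile scaling (0.102) and in a fit on all 8 libraries (0.115), with log2 fold changes of 9.11 to 9.29 in these 3. Over all 18 alternative fits the fold change ran from 8.10, without root replicate 1, to 15.6, without root replicate 2. In the latter fit the remaining root library is at 0, so the fitted value depends on the prior count.

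In the libraries outside the comparison, 448268.v1 was at 432 and 399 CPM in shoot, as in leaf. It was at 999 CPM in rhizophore replicate 1 and at 1.03 CPM in the library labelled rhizophore replicate 2. The highest level of the 8 libraries was thus in rhizophore replicate 1, and the model is not one of leaf and shoot alone. The authors' deposited table gives it averages of 392 for leaf and 0.786 for root.

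The second leaf model was 444666.v1, at 6773 and 9492 CPM in the leaf libraries. It was at 11.6 and 19.3 CPM in the root libraries, from 399 and 884 counts. Both leaf libraries lie far above both root libraries. The means were 8133 ± 1923 CPM for leaf (SD, n = 2) and 15.4 ± 5.43 CPM for root. The fitted log2 fold change was 9.04, with an SE of 0.51 and an adjusted p of 4.0e-65 in edgeR's test. Its call held in all 18 alternative fits, with log2 fold changes of 7.85 to 9.29. The size of the adjusted p depended on the fit. In edgeR's test it was 6.3e-12 with adjusted deviances, 0.000554 after thinning and 0.0224, the largest, on all 8 libraries. Shoot stood beside leaf, at 8525 and 9220 CPM. The rhizophore libraries were at 111 and 3.52 CPM, on either side of the root level. The authors' deposited averages are 7510 for leaf and 9.15 for root.

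The leading model higher in root was 110508.v1. It was at 386 CPM in root replicate 1 and 246 CPM in root replicate 2, from 13286 and 11284 counts. In leaf it was listed at 0 in replicate 1 and at 1.44 CPM, 14 counts, in replicate 2. The organs do not overlap, and the leaf level lies near the smallest count listed. The means were 316 ± 99.2 CPM for root (SD, n = 2) and 0.722 ± 1.02 CPM for leaf. Leaf over root, the fitted log2 fold change was -8.19, with an SE of 0.60 and an adjusted p of 1.3e-39 in edgeR's test. The fold change ran from -7.77 to -16.1 over the 18 alternative fits, the last without leaf replicate 2, where the remaining leaf library is at 0 and the fitted value depends on the prior count; it was -12.9 after thinning. Shoot was as low as leaf, at 1.28 and 1.75 CPM. Rhizophore replicate 1 was low too, at 1.11 CPM, but the library labelled rhizophore replicate 2 was at 186 CPM. The authors' deposited averages are 237 for root and 0.922 for leaf.

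The second root model was 168278.v1, at 326 and 298 CPM in the root libraries. It was listed at 0 in leaf replicate 1 and at 2.27 CPM, 22 counts, in leaf replicate 2. The root libraries were close to each other and far above both leaf libraries. The means were 312 ± 19.4 CPM for root (SD, n = 2) and 1.13 ± 1.60 CPM for leaf, and the fitted log2 fold change was -7.58, with an SE of 0.57 and an adjusted p of 4.7e-37 in edgeR's test. Over the 18 alternative fits it ran from -7.10 to -16.1, again the last without leaf replicate 2, and it was -13.0 after thinning, so its size rests on the 22 counts of 1 leaf library. It was at 1.98 and 1.75 CPM in shoot, at 0 in rhizophore replicate 1 and at 8.36 CPM in the library labelled rhizophore replicate 2. All 4 libraries of the other organs thus lay far below root for this model. The authors' deposited averages are 152 for root and 1.11 for leaf. The calls of both root models ended in the fit on all 8 libraries (edgeR adjusted p of 0.0969 for 110508.v1 and 0.0855 for 168278.v1), which holds the library in doubt, with log2 fold changes of -8.33 and -7.73.

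Below the named models, the leading 20 of each direction showed the same contrast in level. The 20 leading leaf models ran from 57.6 to 83400 CPM in leaf, with a median of 1910, and from 0.404 to 675 CPM in root, with a median of 10.6. Their leaf means were 116 to 694 times their root means. The 20 leading root models ran from 79.2 to 316 CPM in root, with a median of 111, and from 0 to 2.06 CPM in leaf. All 20 were listed at 0 in leaf replicate 1, the smallest library, and 6 were at 0 in leaf replicate 2 as well. Their ratios of root to leaf, with leaf set to no less than the 1.42 CPM that 5 counts stand for on average, were 55.6 to 222. No model higher in root exceeded 3670 CPM in root. The largest adjusted p was 0.000139 among the leaf models and 2.0e-21 among the root models (edgeR). In all 18 alternative fits 6 of the 20 leaf models and 4 of the 20 root models were called.

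In the other organs, 18 of the 20 leading leaf models had a shoot mean within 2-fold of their leaf mean. None of the 20 leading root models had a shoot mean within 2-fold of root, and their shoot means reached at most 3.84 CPM. Rhizophore replicate 1 was above the library labelled rhizophore replicate 2 for 17 of the 20 leaf models, with medians of 214 and 5.83 CPM. For the root models the order was turned, with replicate 1 above for 1 of 20 and medians of 0.695 and 45.7 CPM. Only 1 of the 20 root models was at 0 in the library labelled rhizophore replicate 2, against 9 in replicate 1. The same counts were not taken over all tested models, so none of them is read as particular to the leading models.

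**Figure D3:**
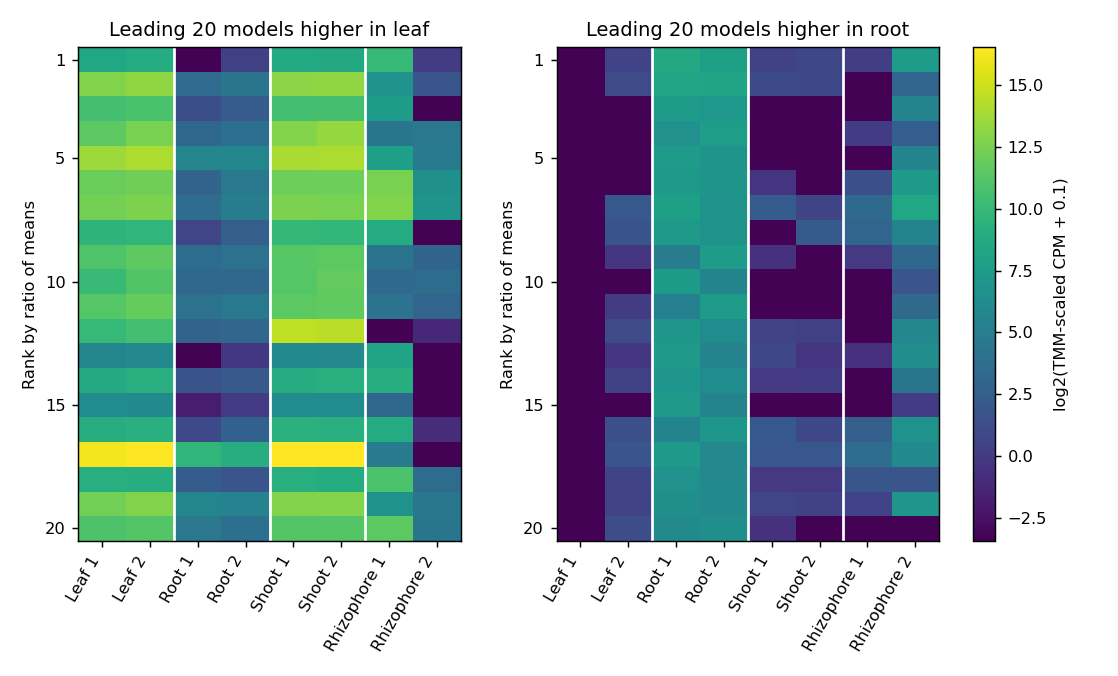
Level in each of the 8 libraries, as log2 of the TMM-scaled CPM plus 0.1, for the 20 leading models higher in leaf (left) and in root (right), ranked by the ratio of mean levels. Shoot columns resemble leaf columns on both sides, the leaf replicate 1 column on the right is at 0 throughout, and the rhizophore columns differ from each other.

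Shoot against rhizophore shares no library with leaf against root, and a separate fit of those 4 libraries gave the same measure in data the first comparison did not use. The rhizophore side of this fit holds the library in doubt. Over all 17955 models tested in the fit, 1112 (6.19%) were higher in shoot and 624 (3.48%) in rhizophore. Of the 3339 models higher in leaf that could be tested, 570 (17.1%) were higher in shoot and 33 (0.988%) in rhizophore. Of the 2788 models higher in root that could be tested, 24 (0.861%) were higher in shoot and 193 (6.92%) in rhizophore. The median log2 fold change of shoot over rhizophore was 1.0 for the first list and -1.38 for the second, beside -0.17 for all models. Models at or near 0 in both organs drop out of this fit, and 298 (7.26%) of the 4106 models listed at 0 in leaf entered it. A model near 0 in 1 of these organs entered only through its counts in the other. Of the 3340 models higher in leaf 3339 entered, and of the 6865 higher in root 2788 entered. The median of the second list is thus in part set by the filter.

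The medians kept their order with either rhizophore library alone. Without the library labelled rhizophore replicate 2, the medians were 0.77 for models higher in leaf, -0.66 for models higher in root and -0.05 for all. Without rhizophore replicate 1 the medians were 1.82, -1.75 and -0.03. With 1 rhizophore library the spread would come from the shoot libraries alone, so no conclusion is drawn from the calls of these fits. Their number is given in the closing section only to show how far the count moves. The calls of this fit depend on its few libraries: edgeR's test made 0 calls without shoot replicate 1 and 0 without shoot replicate 2, with 2226 and 2377 models at an unadjusted p under 0.05. The named models did not pass it with both rhizophore libraries (edgeR adjusted p of 0.952 for 448268.v1, 0.0869 for 444666.v1, 0.170 for 110508.v1 and 0.702 for 168278.v1).

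**Figure D4:**
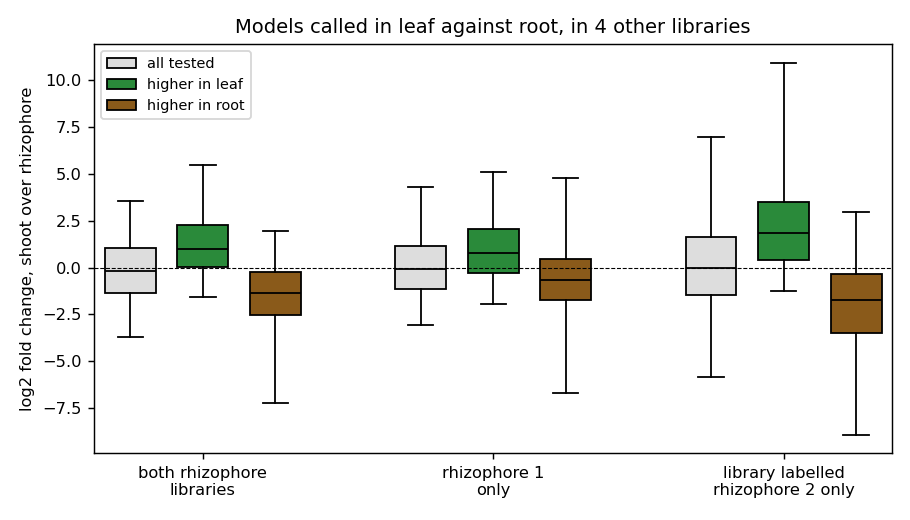
log2 fold change of shoot over rhizophore for all models tested (grey), models higher in leaf than in root (green) and models higher in root than in leaf (brown), with both rhizophore libraries, with replicate 1 only and with the library labelled replicate 2 only. Boxes give the median and quartiles and whiskers the 5th and 95th percentiles; with both libraries the medians are -0.17, 1.0 and -1.38.

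On the TMM scale, replicates differed less in leaf than in root for models of moderate level. At 100 to 1000 CPM the median absolute log2 difference between replicates was 0.319 in leaf (1702 models) and 0.533 in root (1142 models). More than 2-fold separated the replicates for 2 of these leaf models and for 180 (15.8%) of these root models. At 10 to 100 CPM the medians were 0.361 in leaf and 0.457 in root. These differences depend on the scaling as well as on spread between replicates. The TMM factors were 0.759 and 0.604 for leaf replicates 1 and 2, and 1.33 and 1.65 for root replicates 1 and 2. How much of each median is an offset from the scaling was not tested. The ratio of an organ's factors enters the difference between its replicates for every model alike. The SDs of the named models depend on the same factors, so they do not measure spread between replicates alone. Both leaf libraries lay above both root libraries for 5849 models (24.5% of those tested), and the reverse held for 11776 (49.2%). Of the called models, 3330 of the 3340 higher in leaf and 6822 of the 6865 higher in root did not overlap between organs.

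The table holds 22285 models with numeric names and 2719 whose names start in Smoe, and these stood at different levels. Of 2717 Smoe models tested, 562 (20.7%) were higher in leaf and 408 (15%) in root, against 2778 (13.1%) and 6457 (30.5%) of the 21199 numeric models. The medians were 45.4 CPM in leaf and 42.9 CPM in root for Smoe models and 4.73 and 6.30 CPM for numeric ones. Among models at 10 to 100 CPM in the higher organ, 16.8% of 1550 Smoe models were higher in leaf and 17% in root, beside 23% and 21.3% of 8538 numeric models. The excess of Smoe models among those higher in leaf was thus not present at that level.

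The size of the lists depended on the fit. None of the 3340 models higher in leaf, and 1 of the 6865 higher in root, was called in the opposite direction in any of 18 alternative fits. These fits reuse the same leaf and root counts, and nearly all called models did not overlap between organs. Opposite calls were thus hardly possible, and the direction was not tested by them. In all 18 fits, 963 models stayed higher in leaf (median 91.0 CPM in leaf), and 380 stayed higher in root (median 47.2 CPM in root). Of those 380, 27 belonged to the 4106 listed at 0 in leaf. A model that a fit did not test counts as not called in it. The fit limited to models at 10 CPM in at least 2 libraries tested 12226 models and called 69 of the 4106. The counts and medians of the models that stayed are thus in part set by that filter. The balance turned in several fits: on all 8 libraries, with 1576 higher in leaf and 734 in root, with adjusted deviances, with 3274 and 2530, at an adjusted p under 0.01, by 5 models under the 10 CPM filter, and in the fit with the replicate number as a block. Of the libraries, the count was 6720 without leaf replicate 1 and 4995 without leaf replicate 2.

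**Figure D5:**
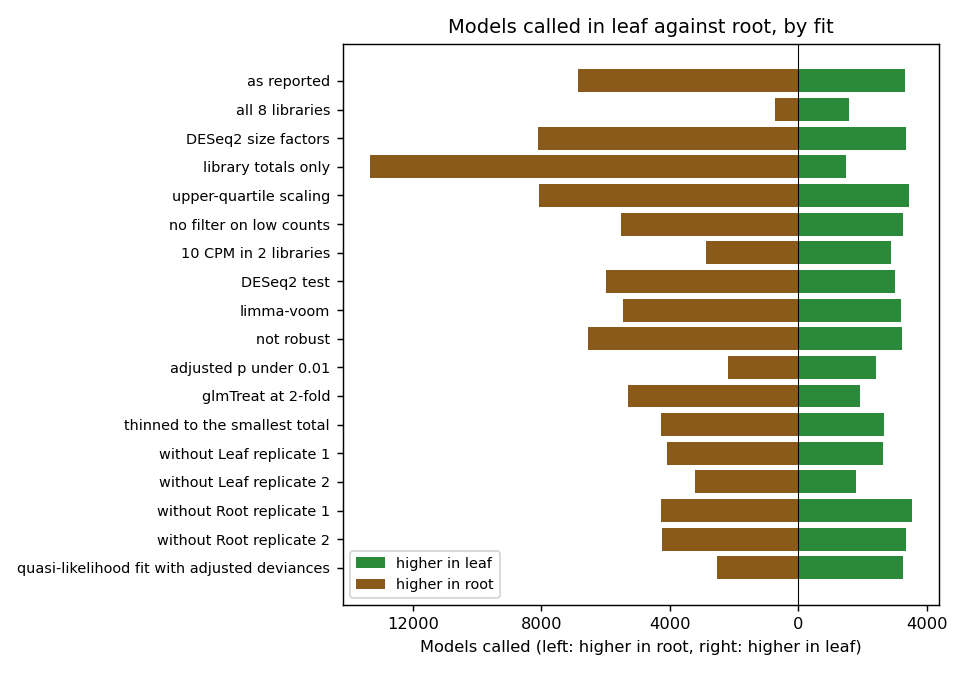
Number of models called higher in leaf (green, to the right) and higher in root (brown, to the left) in the fit as reported and in each of 17 alternatives; the fit with the replicate number as a block is not drawn. The green bars run from 1487 to 3531 models and the brown bars from 734 to 13346.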

How the data were processed

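The authors deposited raw read counts per gene model, 1 column per library, and a normalized signal averaged per organ, per the file headers. The submitters' processing notes name Bowtie2 and edgeR. The sources used here do not give versions, genome build, annotation, counting tool or the handling of multiply matching reads. Per the labels, the Nugen Ovation Amp V2 DR kit was used, with single-end reads of 50 bp. Total counts were 2826533 to 27891111 per library. The leaf and root columns were fitted alone in edgeR 4.0.16 (R 4.3.3): filterByExpr kept 23916 of 25004 models, followed by TMM scaling and the robust quasi-likelihood test, with Benjamini-Hochberg adjustment over all tested models. For 22428 models the fit estimated an infinite prior degrees of freedom, so their own spread between replicates hardly entered the test. Shoot and rhizophore CPM are on the same TMM scale. Standard errors are the log2 fold change over the root of its F statistic.

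Named models passed the test, did not overlap between organs, reached 50 CPM in the higher organ and had the largest ratio of means, with the lower organ at no less than 5 counts per library. With no gene names 2 per direction are named. The gene lists drawn up by product could not be matched. The members, the lists and the tests were chosen with earlier results of these data known. Weights of the deposited averages came from non-negative least squares on the count columns divided by their totals, relative to each model's average (scipy 1.17.1). The procedure was tested on simulated counts. Alternatives included DESeq2 1.42.0 and limma 3.58.1. Replicates of an organ differed by more than sampling noise, with a chi-square per degree of freedom of 4.52 in leaf and 120 in root. This value grows with depth, so it does not compare the spread of leaf with that of root.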

Additional observations from a re-analysis of the deposited data

How the results depend on the processing

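Leaf against root gave 10205 models as reported. It gave 2310 in the fit on all 8 libraries, 5745 where models had to reach 10 CPM in at least 2 libraries, 4628 at an adjusted p under 0.01, 5804 in the fit with adjusted deviances (chosen after seeing the data), and 4995 to 7801 with 1 library left out. Of the 4106 models at 0 in both leaf libraries, the fit on all 8 libraries called 63 and the fit with adjusted deviances 534, and the 10 CPM filter tests fewer models. The other alternatives run, which were DESeq2's size factors, upper-quartile scaling, library totals, no filter, DESeq2, limma-voom, the fit without the robust option, glmTreat at 2-fold and thinning, gave counts within 1.5 times of it, though with other splits, such as 3025 higher in leaf and 5981 in root for DESeq2, 2656 and 4282 after thinning, and 1487 and 13346 with library totals. The labels give leaf and root the same replicate numbers but no shared plant, batch or day, and same-numbered libraries deviated together with a correlation of only 0.0629 across models. The replicate block gave 4144 models, 2197 higher in leaf and 1947 in root. For shoot against rhizophore the count was 1736, with 0 in the replicate block by edgeR's test (5246 models at an unadjusted p under 0.05) and 0 to 11760 with 1 library left out. It was 9694 without the library labelled rhizophore replicate 2. A fit with 1 library left out assumes that the lone library of an organ varies like the other organ's libraries. In the authors' deposited averages the named models kept their direction at pseudocounts of 0.1, 1 and 10. Depth limits leaf replicate 1 most: a model below 2.33 CPM there is listed at 0.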
